A study of Homo sapiens with 14 samples.

Results

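Genes of the C/EBP family and of the stress-responsive ATF group were examined here for open chromatin in 2 human multiple myeloma (MM) cell lines. The 10 members were CEBPA, CEBPB, CEBPD, CEBPE, CEBPG, ATF3, ATF4, ATF5, DDIT3 and TRIB3, out of 20033 protein-coding genes of GENCODE. They were chosen by name, and every reference peak that touched the gene body or the 100 kb on either side of it was taken. This gave 136 of the 72802 peaks of MM.1S and 140 of the 79969 peaks of RPMI8226. All 10 members had at least 1 peak in their window in both lines. No member was dropped by a filter.

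Accessibility was measured by Omni-ATAC, in which a transposase cuts and tags open chromatin. MM.1S had 9 libraries, 3 from cells grown alone (MONO), 3 from cells in an upper transwell above HS5 cells (TSW) and 3 from cells in the lower chamber in contact with HS5 cells (CO). RPMI8226 had 1 MONO, 2 TSW and 2 CO libraries. HS5 is a human bone marrow stromal line, all 3 lines are established lines of 1 donor each, and MM cells were sorted from the cultures as CD90-CD38+ cells before tagging. By the study's methods, a small share of HS5 cells stayed in the sorted lower-chamber cells.

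The deposited files hold 1 pooled list of reference peaks for each line and no read count for any library, so no change between MONO, TSW and CO could be measured. Beside each peak stands a whole number, read here as its support, the number of libraries of that line in which the peak was called. Support ran from 3 to 9 in MM.1S and from 3 to 5 in RPMI8226. A support above 6 in MM.1S, or of 5 in RPMI8226, can only be reached when all cultures carried the peak. A support of 3 in MM.1S could come from the CO libraries alone, which is not possible in RPMI8226, where CO had 2 libraries. A peak call from bulk nuclei does not tell apart chromatin that was open in few cells from chromatin that was weakly open in many, and peak width was the only measure of size. Each line had 1 list and hence no replicate, so no test was run. The intervals given are 95% Wilson intervals over peaks, which cover counting error only, and neighbouring peaks are not independent.

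C/EBP proteins and ATF proteins belong to the basic leucine zipper (bZIP) transcription factors, which bind DNA as dimers. Under protein folding stress or amino acid shortage, kinases of the integrated stress response phosphorylate the initiation factor eIF2, general translation falls and ATF4 is translated more. ATF4 pairs with C/EBP partners such as CEBPB and CEBPG on composite sites that join an ATF site to a C/EBP site, and its targets include ATF3, DDIT3 and TRIB3. Plasma cells, from which myeloma arises, secrete large amounts of antibody and carry a heavy folding load. CEBPA and CEBPE are best known from myeloid cells.

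The composite site was sought as ATF::CEBP, spelled TGATGNAA, on both strands of every peak. The sequences below, read from hg38, hold 8 of the 10 distinct matches in the members' own promoter peaks and are shown because these sites are what the motif counts below rest on. Capitals mark the match, which reads TTGCATCA when it lies on the opposite strand. The ATF3 stretch is chr1:212608511-212608760 on the plus strand, which ends 1 base before the main start. The DDIT3 stretch is chr12:57520753-57520916 on the minus strand, from 402 to 239 bases upstream of the main start, and the CEBPG stretch is chr19:33373975-33374174 on the plus strand, in the first intron. The 3 TRIB3 sites begin at chr20:380881, 380914 and 380947 on the plus strand, in a 5′ UTR exon as annotated by GENCODE. The CEBPB site is chr20:50192385-50192414 on the plus strand, in the 3′ UTR of this gene of a single exon.
ATF3 promoter: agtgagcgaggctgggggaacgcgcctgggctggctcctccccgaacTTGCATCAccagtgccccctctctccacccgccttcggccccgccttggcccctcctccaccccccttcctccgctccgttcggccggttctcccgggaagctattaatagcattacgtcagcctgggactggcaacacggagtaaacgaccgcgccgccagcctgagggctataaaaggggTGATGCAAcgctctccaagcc
DDIT3 promoter: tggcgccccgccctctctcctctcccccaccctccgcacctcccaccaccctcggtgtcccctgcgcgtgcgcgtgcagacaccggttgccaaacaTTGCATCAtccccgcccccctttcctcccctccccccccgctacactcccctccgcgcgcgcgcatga
CEBPG promoter: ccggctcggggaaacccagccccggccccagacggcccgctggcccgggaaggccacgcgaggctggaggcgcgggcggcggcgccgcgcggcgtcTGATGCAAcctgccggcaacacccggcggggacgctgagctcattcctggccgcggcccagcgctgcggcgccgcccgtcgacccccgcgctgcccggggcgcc
TRIB3 site 1: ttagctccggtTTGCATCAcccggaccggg
TRIB3 site 2: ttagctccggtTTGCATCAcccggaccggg
TRIB3 site 3: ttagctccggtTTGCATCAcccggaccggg
CEBPB site: ggtttcgaagtTGATGCAAtcggtttaaac

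An ATF::CEBP match lay in an own promoter peak of 4 of the 9 members with such a peak in MM.1S (CEBPG, ATF3, DDIT3 and TRIB3) and of 4 of 10 in RPMI8226 (CEBPB, CEBPG, ATF3 and TRIB3). An own promoter peak is one within 2500 bp of any annotated start of the gene. Among all coding genes with a promoter peak, 9.31% held a match in MM.1S and 7.57% in RPMI8226. ATF3, DDIT3 and TRIB3 are among the ATF4 targets named above, and such targets are known in part through these sites. The members' share is therefore not independent of how they were chosen. In all, 10 distinct matches were found at the promoters of 5 members, and 8 of these lay inside peaks of both lines. CEBPA, CEBPD, CEBPE, ATF4 and ATF5 had none in their own promoter peaks in either line.

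TRIB3, a pseudokinase induced by ATF4, held the most, with 5 matches in both lines. Its 3 printed sites are identical over all 30 bases and follow each other every 33 bp. Their matches begin 133, 166 and 199 bases into the main transcript of GENCODE. The TRIB3 starts of RefSeq, another annotation, lie downstream of all 3 sites. The peak that covers them was called in every library, as 1790 bp in MM.1S (9 of 9) and as 584 bp in RPMI8226 (5 of 5). Peaks with 3 or more matches were rare, with 56 in the MM.1S list (0.0769% of peaks) and 46 in the RPMI8226 list (0.0575%). A further TRIB3 match lay 1391 bases into the gene and another in the peak at the upstream start.

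The ATF3 matches began 203 and 21 bases upstream of its main start, and both lay in a peak of every library of both lines. The CEBPG match lay 363 bases downstream of the main start, again in a peak of every library. DDIT3 differed between the lists. Its match, 306 bases upstream, was inside the MM.1S peak but 42 bp beyond the edge of the narrower RPMI8226 peak. CEBPB differed the other way, since its match lay in a peak of 165 bp that was called in 4 of 5 RPMI8226 libraries and in the MM.1S list not at all. The base at the open position N was C in 7 of 9 member matches in each line, against 26.3% of the matches in all coding promoter peaks of MM.1S and 28.2% of those of RPMI8226. The 3 TRIB3 repeats count 3 times in this number.

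**Figure D1:**
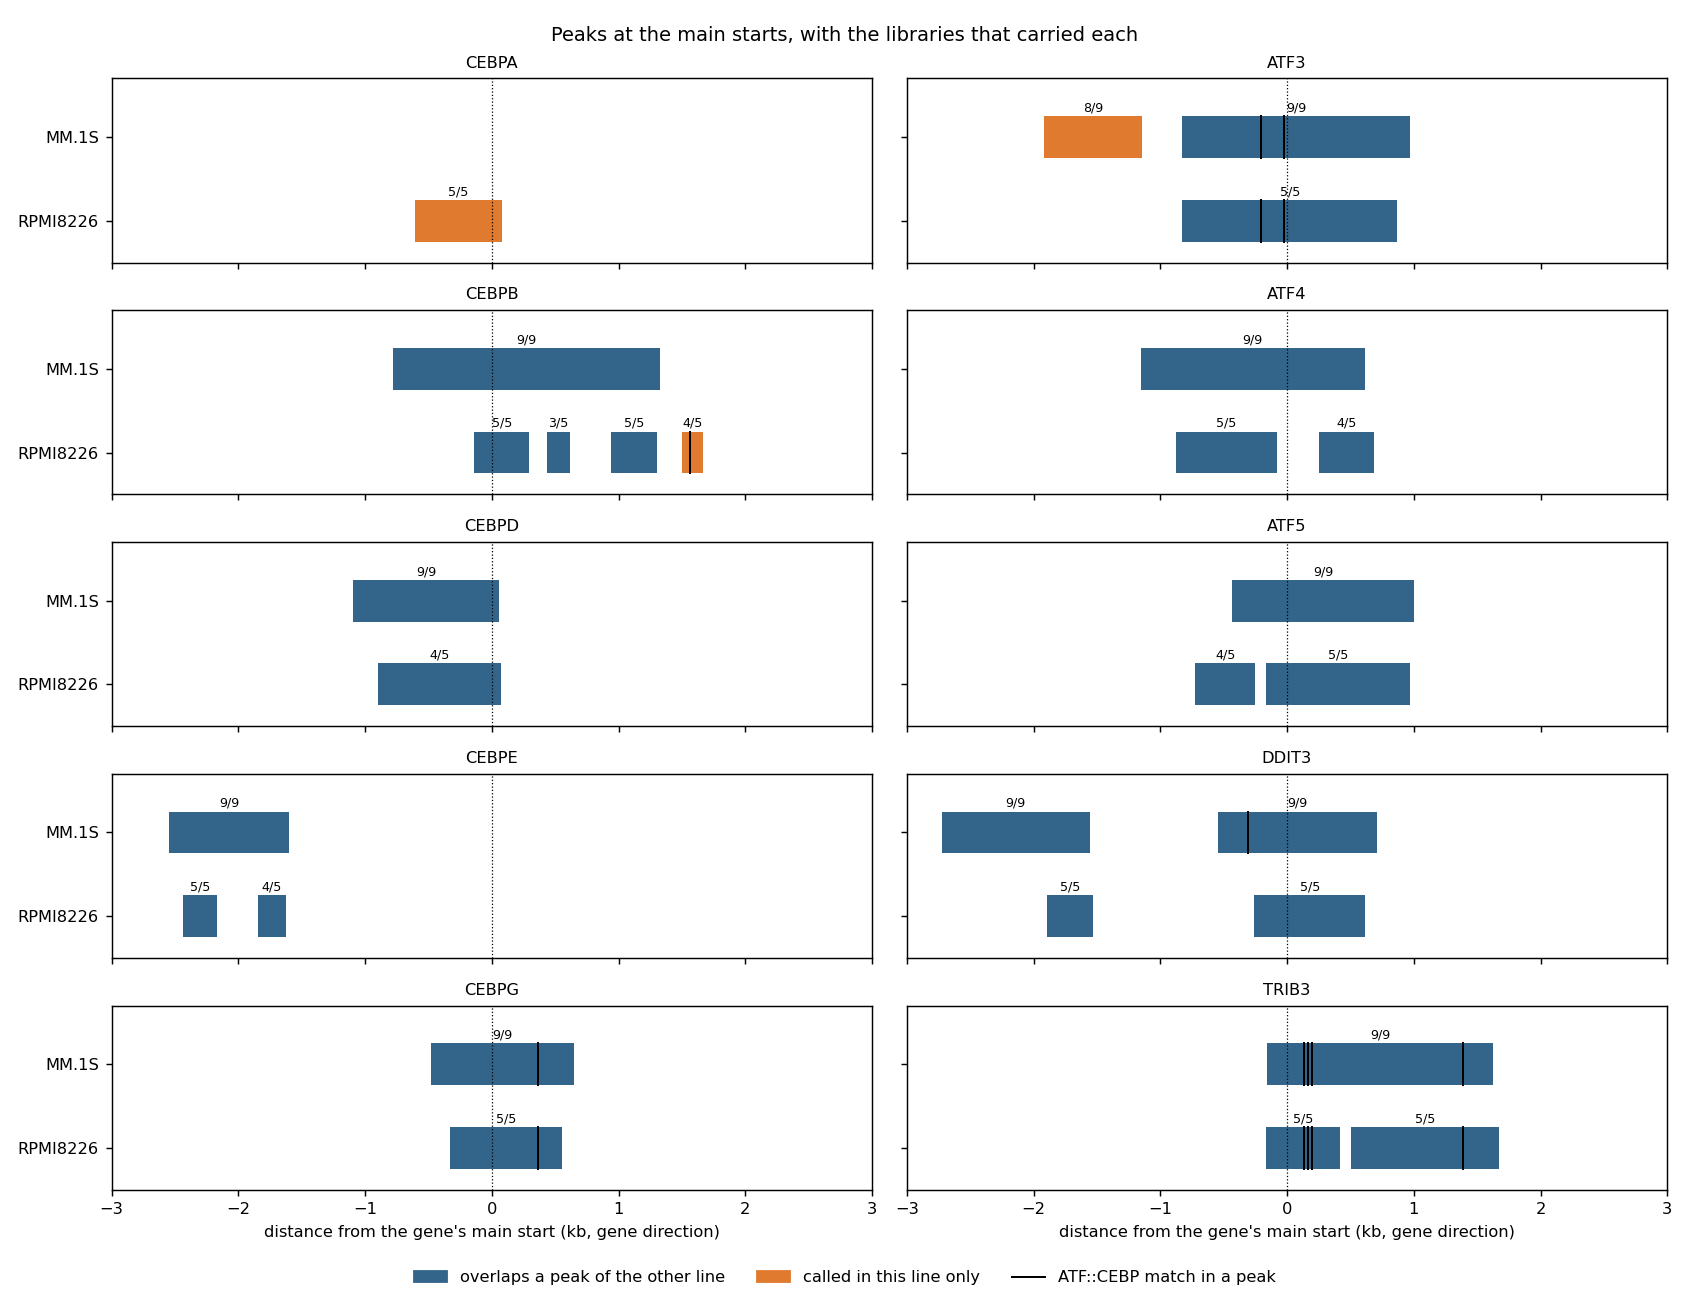
Own promoter peaks within 3 kb of each gene's main start. The x axis is distance in kb along the gene, each bar is a peak of the line named at the left, the fraction above it is its support, blue bars overlap a peak of the other line, orange bars do not, and black ticks are ATF::CEBP matches. CEBPA has a bar in RPMI8226 only, TRIB3 has 3 close ticks in both lines, and RPMI8226 has 4 short bars at CEBPB where MM.1S has 1 long bar.

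The same search was run on other gene lists to place these promoters. Of 20 textbook ATF4 target genes that are not members, 19 had an own promoter peak in both lines. NUPR1, a stress-induced chromatin protein, was the exception in both. A match lay in the promoter peaks of 13 of the 19 in MM.1S (68.4%) and 12 of the 19 in RPMI8226 (63.2%), beside the 9.31% and 7.57% of all coding genes. Genes of this list are known as ATF4 targets in part through such sites, so the share describes how many of the sites lay in called peaks. The share was 2 of 21 among other CREB/ATF and PAR bZIP genes (JDP2 and CREB5) in both lines, 1 of 12 among the kinases and phosphatase subunits of the integrated stress response (PPP1R15B, the constitutive eIF2 phosphatase subunit) and 1 of 11 among plasma cell markers (MZB1). It was 0 of 7 and 0 of 4 among stromal markers, and 2 of 7 and 1 of 8 among myeloid markers, in MM.1S and RPMI8226.

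The sites below come from 5 ATF4 target genes with a match in the promoter peaks of both lines, and were chosen after the values were seen to set beside the member sites. ASNS makes asparagine, CHAC1 degrades glutathione, SESN2 restrains mTORC1 under amino acid shortage, SLC7A11 imports cystine and PSAT1 acts in serine synthesis. All 5 peaks had support of 9 in MM.1S and 5 in RPMI8226. Each is written on the strand on which it reads TGATGNAA, which is minus for ASNS (chr7:97872458-97872487), CHAC1 (chr15:40953251-40953280), SESN2 (chr1:28259211-28259240) and PSAT1 (chr9:78297381-78297410) and plus for SLC7A11 (chr4:138242407-138242436).
ASNS site: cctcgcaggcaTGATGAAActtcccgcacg
CHAC1 site: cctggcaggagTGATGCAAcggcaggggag
SESN2 site: ttagggttgcgTGATGAAAagggacttcac
SLC7A11 site: cagctaaatgaTGATGCAAattctccaggt
PSAT1 site: gctgtgcacgcTGATGCAAagcgcctaggg

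Over the whole windows, the members' peaks sat at promoters more often than the lists as a whole. A promoter peak lay within 2500 bp of any annotated start, the member's own or a neighbour's, and all others were called distal. In MM.1S 80 of 136 peaks were promoter peaks (58.8%, interval 50.4 to 66.7), against 39.2% of all MM.1S peaks. In RPMI8226 83 of 140 were (59.3%, interval 51.0 to 67.1), against 36.0%. These windows lie around genes by construction, whereas the lists also cover gene-poor DNA.

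Sharing between the lines was also above the level of the lists. Peaks of the lists that had 1 bp or more in common were called shared. Of the MM.1S peaks 102 were shared (75.0%, interval 67.1 to 81.5), beside 64.6% of the list, and of the RPMI8226 peaks 116 were (82.9%, interval 75.8 to 88.2), beside 62.0%. Distal peaks alone were shared at 40 of 56 in MM.1S (71.4%, interval 58.5 to 81.6, list 60.0%) and 42 of 57 in RPMI8226 (73.7%, interval 61.0 to 83.4, list 53.7%). Promoter peaks alone were shared at 62 of 80 in MM.1S (77.5%, interval 67.2 to 85.3, list 71.8%). In RPMI8226 74 of 83 were (89.2%, interval 80.7 to 94.2, list 76.6%). In both classes the interval lay above the value of its list for RPMI8226 and not for MM.1S.

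Support was high but closer to the lists. In MM.1S 82 of the 136 peaks were called in every library (60.3%, interval 51.9 to 68.1), where the list had 52.0%. In RPMI8226 101 of 140 were (72.1%, interval 64.2 to 78.9), where the list had 64.1%. At distal peaks alone the MM.1S share was 41.1% (list 42.0%) and the RPMI8226 share 66.7% (list 58.5%), and at promoter peaks they were 73.8% (list 67.5%) and 75.9% (list 74.2%). Some peaks had a support that allowed them to be missing from all MONO libraries. They numbered 26 in MM.1S (19.1%, interval 13.4 to 26.5, list 27.7%) and 39 in RPMI8226 (27.9%, interval 21.1 to 35.8, list 35.9%). Whether any of them was missing there cannot be read from the support. Of the 9 MM.1S peaks with support of 3, the only ones that could rest on CO libraries alone, 2 were shared with RPMI8226.

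**Figure D2:**
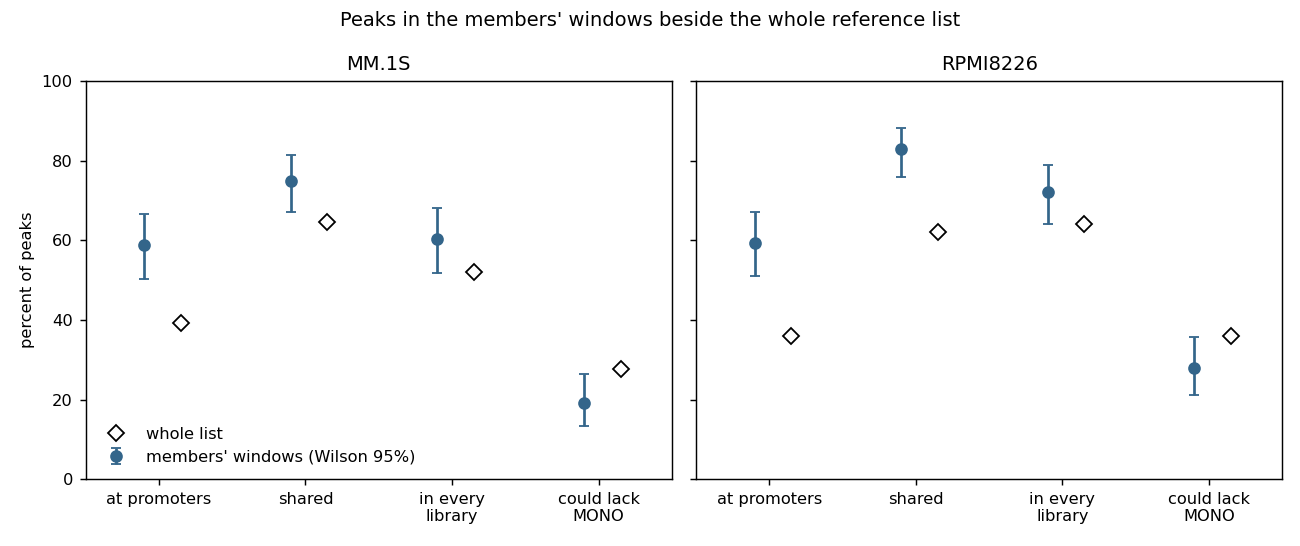
Percent of peaks (y axis) that lay at promoters, were shared between the lines, were called in every library, or had a support that allows absence from MONO. Circles with bars are the peaks of the members' windows with 95% Wilson intervals, and open diamonds are the whole list of the line. Promoter and sharing shares of the members lie above both lists, by more than the interval. The other 2 measures lie closer to the lists. Of these, only the share called in every library in MM.1S has its list value inside the interval.

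The 3 functional groups differed in these counts. Around the 5 C/EBP genes 22 of 37 MM.1S peaks (59.5%, interval 43.5 to 73.7) and 26 of 35 RPMI8226 peaks (74.3%, interval 57.9 to 85.8) were shared. Around ATF3, ATF4 and ATF5 the counts were 50 of 60 (83.3%, interval 72.0 to 90.7) and 54 of 63 (85.7%, interval 75.0 to 92.3). Around DDIT3 and TRIB3 they were 30 of 39 and 36 of 42. The C/EBP group thus had the lowest share in both lines, and its intervals overlapped those of the other groups. In MM.1S 9 of its 15 distal peaks were line-only, against 7 of 35 in the stress ATF group and 0 of 6 at the genes downstream of ATF4, where the list had 40.0%. The CEBPA window held 7 of those 9, and outside it 2 of 7 were line-only.

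**Figure D3:**
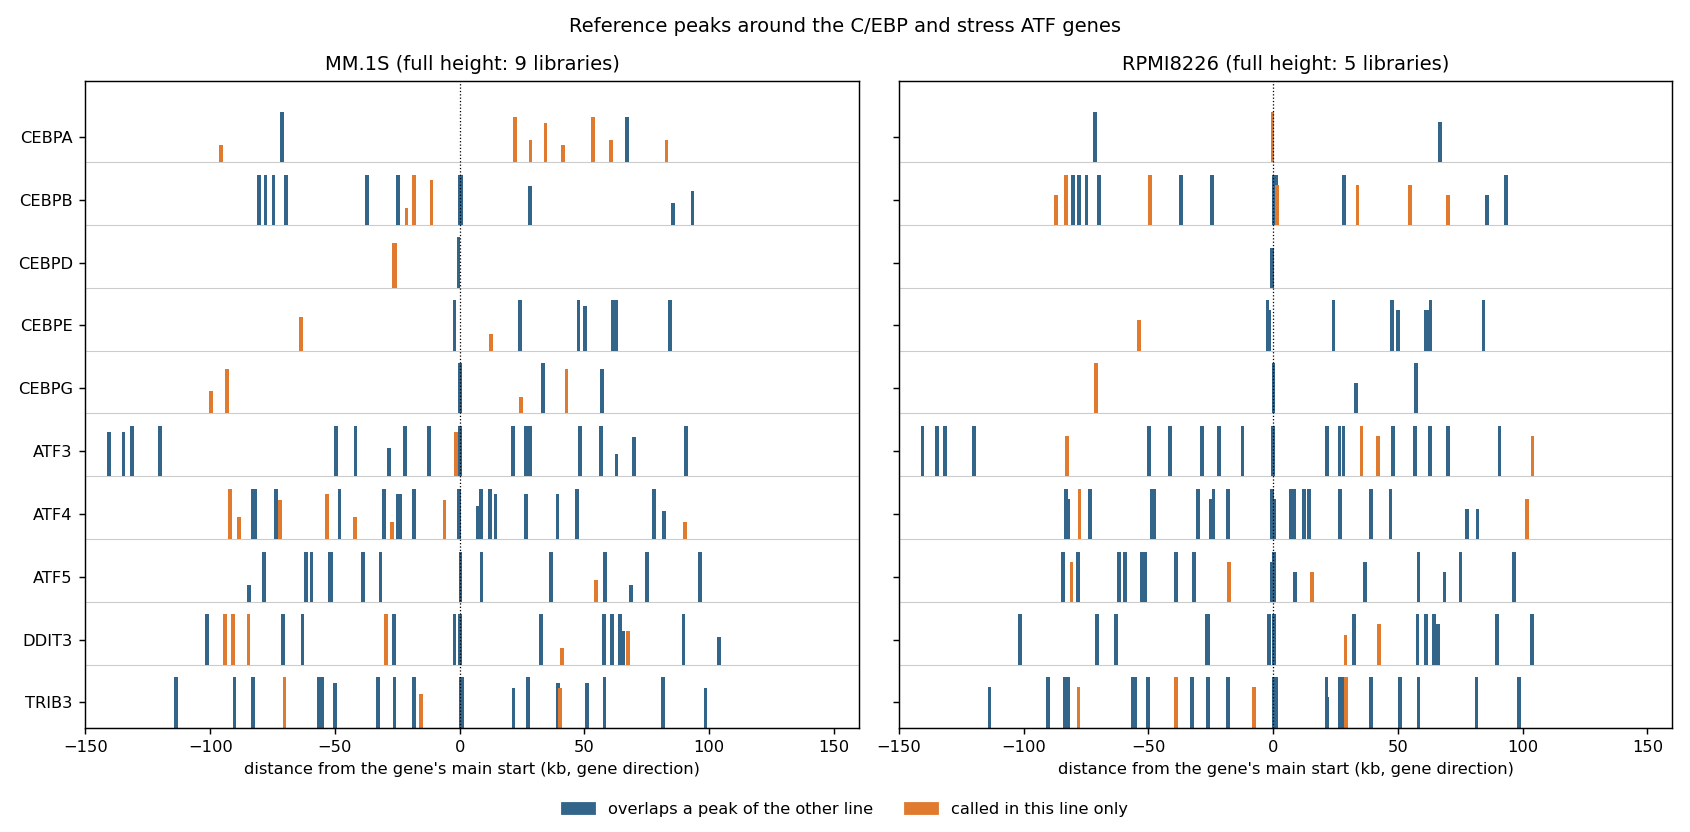
Reference peaks in the 10 windows, drawn by distance in kb from each gene's main start along the gene. Bar height is support as a share of the line's libraries, bars are drawn at least 1.5 kb wide so that short peaks can be seen, blue bars overlap a peak of the other line and orange bars do not. The orange bars downstream of CEBPA appear in MM.1S and not in RPMI8226, while the ATF3 and ATF5 rows are mostly blue in both.

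The number of peaks per window varied widely between members. All coding genes had a median of 11 peaks per window in each line, with quartiles of 6 and 16 in MM.1S and 7 and 17 in RPMI8226. CEBPD had 2 and 1 peaks in MM.1S and RPMI8226, and CEBPG had 7 and 4. ATF4 had 26 and 22, at percentiles 97.0 and 90.2 of coding genes, and TRIB3 had 20 and 25. The stress genes thus lay in the upper part of the distribution and CEBPD and CEBPG in the lower part. The other C/EBP genes varied, with CEBPB at percentiles 62.4 and 82.6, CEBPE at 41.3 and 43.6 and CEBPA at 47.1 and 9.11. Counts follow the gene density of the region as well, since neighbours' promoters are included. CEBPA and CEBPG are neighbours whose windows overlap, so that 4 MM.1S and 2 RPMI8226 peaks were counted for both genes and once in the totals.

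**Figure D4:**
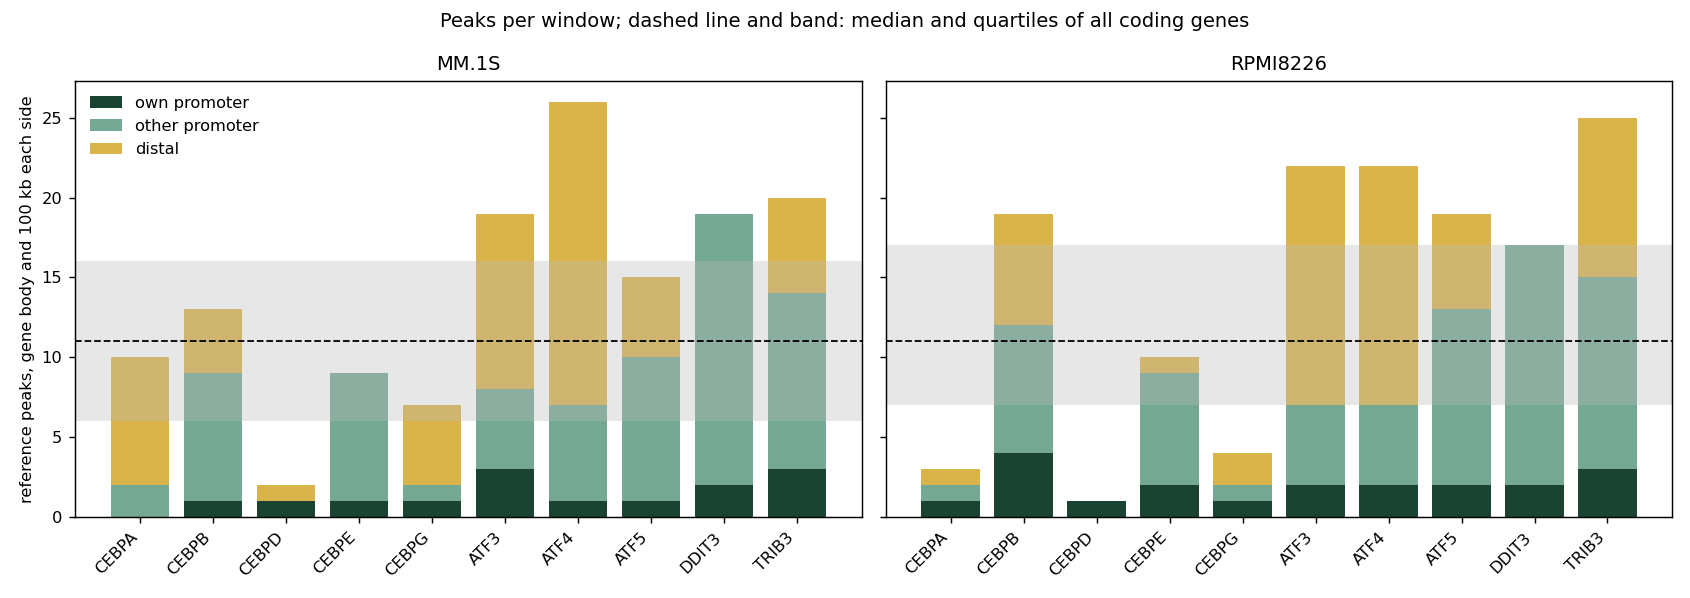
Number of reference peaks in the gene body and 100 kb on each side (y axis) for each member, split into own promoter, other promoter and distal peaks. The dashed line and grey band are the median and quartiles over all coding genes, and DDIT3 has no distal peak in either line.

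CEBPA, a factor of myeloid differentiation, was the member with the clearest difference between the lists. It had an own promoter peak in RPMI8226 only, chr19:33302455-33303143, of 689 bp with support of 5 of 5. This peak covers the single start of CEBPA and lies within 2500 bp of the start of the divergent noncoding transcript CEBPA-DT. MM.1S had no peak within 2500 bp of the start. CEBPA was the only member without an own promoter peak in a line, while 76.8% of all coding genes had one in MM.1S and 71.8% in RPMI8226.

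Downstream of CEBPA the pattern was turned round. MM.1S had 8 distal peaks in the window and RPMI8226 had 1. Of the MM.1S peaks 7 were line-only, 6 of them at 22.1, 28.4, 34.4, 41.5, 53.4 and 60.7 kb downstream, in DNA between genes. Their support was 8, 4, 7, 3, 8 and 4 of 9 in that order, so none was called in every library and 3 of the 6 must have been called in all cultures. The seventh, 95.7 kb upstream in an intron of PEPD, had support of 3. The 1 distal peak shared by the lines lay 67.0 kb downstream, with 665 bp and 8 of 9 in MM.1S and 410 bp and 4 of 5 in RPMI8226. Over the window the peaks of both lines had 17.0% of their covered bases in common, the lowest value of the 10 members.

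Stretches from line-only peaks of each line at this gene are shown next. The CEBPA promoter is chr19:33302535-33302784 on the minus strand, the 250 bases before the start, and none of it is capitalized because no match is marked. The distal peak is the central part of the widest distal MM.1S peak of the window, chr19:33248636-33249722 (1087 bp, 8 of 9), shown as chr19:33249145-33249344 on the plus strand. Its capitals mark a match to AP-1, TGANTCA, the site of JUN and FOS dimers and other bZIP proteins. The stretch was picked for this match near the centre of the peak.
CEBPA promoter: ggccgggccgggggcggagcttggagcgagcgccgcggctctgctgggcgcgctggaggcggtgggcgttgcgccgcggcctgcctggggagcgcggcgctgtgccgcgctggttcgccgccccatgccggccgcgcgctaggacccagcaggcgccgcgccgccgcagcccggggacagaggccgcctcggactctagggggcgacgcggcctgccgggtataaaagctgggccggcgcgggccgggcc
CEBPA distal peak: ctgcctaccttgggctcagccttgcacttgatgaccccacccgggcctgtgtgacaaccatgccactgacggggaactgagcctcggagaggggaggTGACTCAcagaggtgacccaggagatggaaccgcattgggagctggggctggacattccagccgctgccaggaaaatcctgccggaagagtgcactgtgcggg

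CEBPB, the usual C/EBP partner named with ATF4, was open at its start in both lines. MM.1S had 1 peak of 2104 bp, chr20:50190053-50192156 (9 of 9), the widest own promoter peak of the set. RPMI8226 had 4 shorter peaks of 436, 180, 366 and 165 bp over the same gene, with support of 5, 3, 5 and 4. The first 3 lay inside the MM.1S peak and the fourth, chr20:50192330-50192494, was the line-only peak with the ATF::CEBP match. One broad call therefore stood against several narrow ones.

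Away from the promoter, CEBPB had 4 distal peaks in MM.1S and 7 in RPMI8226, with 3 of each shared. The widest in MM.1S was chr20:50120802-50121476 (675 bp, 9 of 9), 69.7 kb upstream, which was also called in every RPMI8226 library. The widest in RPMI8226 was chr20:50141161-50141680 (520 bp, 5 of 5), 49.4 kb upstream in an intron of PEDS1, and had no counterpart in MM.1S. CEBPB had 2 of the 5 distal RPMI8226 peaks that were line-only and called in every library.

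CEBPG, a short C/EBP protein that lacks a transactivation domain and pairs with ATF4, had 1 own promoter peak in each line. It was chr19:33373229-33374354 in MM.1S (1126 bp, 9 of 9) and chr19:33373381-33374261 in RPMI8226 (881 bp, 5 of 5), and the second lay wholly within the first. Its 2 shared distal peaks, 33.3 and 57.0 kb downstream, lay in introns of its neighbour PEPD. The widest distal MM.1S peak of the window, chr19:33279952-33280842 (891 bp, 8 of 9), is the one 22.1 kb downstream of CEBPA. In RPMI8226 the widest was chr19:33406747-33407078 (332 bp, 3 of 5).

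CEBPE, a factor of late granulocyte maturation, had its promoter peaks away from the starts. In MM.1S the peak chr14:23120854-23121805 (952 bp, 9 of 9) began 1599 bp upstream of the main start and covered none of the 3 annotated starts. In RPMI8226 the peaks chr14:23120877-23121101 (225 bp, 4 of 5) and chr14:23121424-23121691 (268 bp, 5 of 5) lay inside it. The other 8 and 7 promoter peaks of the window belonged to neighbours such as ACIN1 and PSMB5. CEBPE had no distal peak in MM.1S and 1 in RPMI8226, of 136 bp with support of 3, chr14:23173119-23173254.

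CEBPD, an acute-phase C/EBP gene of a single exon, stood in the emptiest window. Its own promoter peak was 1151 bp wide in MM.1S (9 of 9) and 970 bp in RPMI8226 (4 of 5), with 956 bp in common. RPMI8226 had no other peak there, and CEBPD was the only member whose own promoter had no peak in all 5 RPMI8226 libraries. MM.1S had 1 more, a line-only distal peak of 1770 bp with support of 8 of 9, centred 26.1 kb upstream. That was the widest distal peak in any of the 10 windows.

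ATF4, the central factor of the integrated stress response, had the densest MM.1S window. Its own promoter peak was chr22:39519408-39521176 in MM.1S (1769 bp, 9 of 9). In RPMI8226 it was split into chr22:39519682-39520479 (798 bp, 5 of 5) and chr22:39520815-39521250 (436 bp, 4 of 5). The gap between them held the main start at 39520562, which the MM.1S peak covers, while the first RPMI8226 peak covers another annotated start.

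The surroundings of ATF4 held 19 distal peaks in MM.1S and 15 in RPMI8226, at percentiles 99.2 and 95.9 of coding genes, and 13 of each were shared. Of these 5 were called in every library of both lines. The widest MM.1S peak was chr22:39446236-39447523 (1288 bp, 9 of 9), 73.7 kb upstream, and the widest RPMI8226 peak was chr22:39528430-39529453 (1024 bp, 5 of 5), 8.38 kb downstream. The second overlapped an MM.1S peak of 1057 bp (9 of 9), and both held an ATF::CEBP match that began 7883 bases downstream of the main start. ATF4 also had the only distal MM.1S peak of the set that was line-only and called in all 9 libraries, chr22:39427952-39428981 (1030 bp), 92.1 kb upstream in an intron of TAB1. Its RPMI8226 counterpart in kind was chr22:39442846-39443070 (225 bp, 5 of 5), 77.6 kb upstream.

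ATF3, an early stress-response gene induced by ATF4, had no line-only distal peak in MM.1S. At its main start the peaks were chr1:212607934-212609732 in MM.1S (1799 bp, 9 of 9) and chr1:212607935-212609632 in RPMI8226 (1698 bp, 5 of 5), so that 1698 bp were common. All 11 distal MM.1S peaks were shared, 8 of them as peaks called in every library of both lines. RPMI8226 had 4 more distal peaks of its own, of which chr1:212643951-212644364 (414 bp), 35.4 kb downstream, was called in 5 of 5. The widest distal peaks were chr1:212656226-212657431 in MM.1S (1206 bp, 9 of 9) and chr1:212671233-212672112 in RPMI8226 (880 bp, 5 of 5).

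A second start region of ATF3, far upstream of the main one, was open in both lines as well. The peak there was 993 bp in MM.1S (9 of 9), centred 41.8 kb upstream, and 477 bp in RPMI8226 (5 of 5), centred 41.5 kb upstream. MM.1S alone had 1 more own promoter peak, chr1:212606845-212607619 (775 bp, 8 of 9), just upstream of the main one. The distal peak 120 kb upstream of ATF3, shared and called in every library, was the only distal peak in the windows with more than 1 ATF::CEBP match. Its sequence from chr1:212488596-212488894, plus strand, is given with both matches in capitals to show how the site appears away from a promoter.
ATF3 distal peak: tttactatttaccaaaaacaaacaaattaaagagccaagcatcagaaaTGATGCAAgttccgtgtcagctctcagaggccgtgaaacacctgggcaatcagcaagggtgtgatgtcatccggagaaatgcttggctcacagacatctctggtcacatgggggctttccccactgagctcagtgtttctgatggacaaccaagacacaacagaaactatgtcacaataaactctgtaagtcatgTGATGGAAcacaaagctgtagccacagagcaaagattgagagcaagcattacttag

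ATF5, a stress ATF translated in the manner of ATF4, shared its promoter with neighbours. The own promoter peak was chr19:49928774-49930210 in MM.1S (1437 bp, 9 of 9), and chr19:49928482-49928955 (474 bp, 4 of 5) with chr19:49929043-49930175 (1133 bp, 5 of 5) in RPMI8226. Starts of NUP62, a nuclear pore gene, and IL4I1 lie within 2500 bp of these peaks, which cannot be assigned to 1 of the 3 genes. Of the covered bases in its window 74.5% were common to both lines, the highest value of the 10 members. The widest distal peaks were chr19:49965574-49966250 in MM.1S (677 bp, 9 of 9) and chr19:50004005-50004587 in RPMI8226 (583 bp, 5 of 5).

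DDIT3, which encodes the pro-apoptotic factor CHOP, had promoter peaks alone in its gene-dense window, 19 in MM.1S and 17 in RPMI8226. The peak over its main start was chr12:57519808-57521057 in MM.1S (1250 bp, 9 of 9) and chr12:57519898-57520771 in RPMI8226 (874 bp, 5 of 5). A second one, chr12:57522068-57523240 (1173 bp, 9 of 9) and chr12:57522048-57522404 (357 bp, 5 of 5), lay in the direction of MBD6. Both regions are also within 2500 bp of starts of MBD6 and of a readthrough gene, so their peaks are not particular to DDIT3. Of the 19 MM.1S peaks 6 were line-only, 4 of them called in 9 of 9 libraries, at promoters of neighbours. RPMI8226 had 2 line-only peaks, with support of 4 and 3.

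TRIB3 had own promoter peaks at both of its start regions. At the main start they were chr20:380600-382389 in MM.1S (1790 bp, 9 of 9), and chr20:380595-381178 (584 bp, 5 of 5) and chr20:381266-382430 (1165 bp, 5 of 5) in RPMI8226. At the upstream start they were 530 bp (9 of 9) and 534 bp (5 of 5) wide, with 529 bp in common. MM.1S had a line-only peak of 321 bp with support of 6 near that start. All 6 distal MM.1S peaks and 7 of 10 in RPMI8226 were shared, and the widest ones, chr20:438194-439364 (1171 bp, 9 of 9) and chr20:438574-439474 (901 bp, 5 of 5), overlapped 58.0 kb downstream, inside TBC1D20. The widest distal RPMI8226 peak that was line-only and in every library was chr20:341727-341989 (263 bp), 38.9 kb upstream.

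Across the members, 14 own promoter peaks were called in MM.1S and 20 in RPMI8226 for the same genes. Of the MM.1S ones 5 each overlapped several RPMI8226 peaks, 11 in all, and 2 peaks of each line were line-only. MM.1S peaks in the windows had a median width of 677 bp and RPMI8226 peaks of 436 bp, and the whole lists had 536 and 362 bp. By the study's supplement, RPMI8226 libraries had fewer read pairs than all MM.1S libraries but 1. What part depth had in these widths and splits was not tested. Distal peaks called in every library of both lines numbered 17 of 56 in MM.1S (30.4%, list 27.5%) and 18 of 57 in RPMI8226 (31.6%, list 24.5%). Distal line-only peaks called in every library numbered 1 of 56 in MM.1S (1.79%, list 9.37%) and 5 of 57 in RPMI8226 (8.77%, list 20.1%). All distal line-only peaks made up 46.3% of the distal RPMI8226 list, beside 15 of the 57.

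Matches to AP-1 and to the C/EBP site differed from the lists by less than the interval in distal peaks. In the central 200 bp of distal peaks AP-1 matched 3 of 56 in MM.1S (5.36%, interval 1.84 to 14.6, list 12.4%) and 9 of 57 in RPMI8226 (15.8%, interval 8.54 to 27.4, list 21.1%). The C/EBP site, spelled TTGCNNAA, matched 3 of 56 and 4 of 57, beside 9.86% and 11.0% of the lists. Over whole distal peaks it matched 23.2% in MM.1S (list 22.6%) and 17.5% in RPMI8226 (list 17.9%). In the central 200 bp of promoter peaks it matched 0 of 80 in MM.1S (interval 0 to 4.58, list 5.83%) and 2 of 83 in RPMI8226 (2.41%, interval 0.663 to 8.37, list 6.68%), and the MM.1S list lay above the interval. Over whole promoter peaks it matched 12 of 80 in MM.1S (15.0%, interval 8.79 to 24.4, list 20.8%). In RPMI8226 it matched 9 of 83 (10.8%, interval 5.81 to 19.3, list 15.6%), so that both lists lay inside the intervals. ATF::CEBP in the central 200 bp of promoter peaks matched 4 of 80 in MM.1S (5.00%, interval 1.96 to 12.2, list 1.91%) and 6 of 83 in RPMI8226 (7.23%, interval 3.36 to 14.9, list 2.34%). These peaks include neighbours' promoters, and the matched peak was a member's own in 2 of the 4 and 4 of the 6. Over whole promoter peaks the counts were 8 of 80 (10.0%, interval 5.15 to 18.5, list 6.56%) and 10 of 83 (12.0%, interval 6.68 to 20.8, list 5.02%), so that in MM.1S the list lay inside the interval. In the central 200 bp of distal peaks it matched 1 of 56 and 2 of 57, beside 3.78% and 4.02%.

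The STAT3 site, spelled TTCCNGGAA, and the endoplasmic reticulum stress element, CCAAT and CCACG with 9 bases between them, had no match in the central 200 bp of any member peak. Both are rare in the lists as well, at 0.568% to 0.645% for STAT3 and at most 0.0281% for the stress element. Over whole peaks, STAT3 matched 1 distal peak per line, the shared ATF3 peak 120 kb upstream. In the central 200 bp, the cyclic AMP response element, TGACGTCA, and the unfolded protein response element, TGACGTGG, each matched 1 promoter peak per line. In the same windows of the lists they matched 0.779% and 0.393% of MM.1S promoter peaks, and 0.895% and 0.441% of those of RPMI8226. Over whole peaks each matched 2 promoter peaks per line. The whole-peak list values were 2.50% and 1.63% in MM.1S, and 2.16% and 1.25% in RPMI8226. RefSeq promoters, 250 bases before to 50 after a start, were on hand for 9 members with 18 starts. An ATF::CEBP match lay in 2 of the 18 (at an upstream ATF3 start and at a CEBPG start), beside 2.69% of 22199 promoters. These windows do not reach the DDIT3, TRIB3 and CEBPB matches given above, nor those at the main ATF3 start, and the ATF3 match counted here is another one. AP-1 matched 4 of the 18, at ATF5, CEBPE and DDIT3, beside 6.15% of all. The 2 DDIT3 starts lie close together and hold the same AP-1 site, which is counted for both. Windows of several other members overlap as well, so the 18 are not independent.

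Promoter peaks of whole gene lists place the members among related and unrelated genes. Of all coding genes 76.8% had an own promoter peak in MM.1S and 71.8% in RPMI8226, and of the 10 members 9 and 10 did. All 21 other CREB/ATF and PAR bZIP genes and all 12 kinases and phosphatase subunits of the integrated stress response had an own promoter peak in both lines. So did all 11 plasma cell markers, among them SDC1, IRF4 and XBP1. Of 11 stromal markers 7 had one in MM.1S and 4 in RPMI8226, and COL3A1, LUM, THY1 and POSTN had none in either. Of 11 myeloid markers 7 and 8 had one (63.6% and 72.7%), below the share of all coding genes in MM.1S and close to it in RPMI8226. MM.1S lacked one at MPO, CSF1R, LYZ and S100A8, and RPMI8226 at MPO, AZU1 and PRTN3. Some of these markers have promoters that are open in many cell types, and what part HS5 cells had in any peak was not tested.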

How the data were processed

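Omni-ATAC libraries were grouped by cell line and culture from the sample titles, as 9 MM.1S and 5 RPMI8226 libraries. By the study's methods and processing notes, the authors aligned paired-end reads to hg38 with Bowtie2 and called peaks per library with MACS3 (versions not given in the sources used here), and a reference peak had to be present in at least 3 libraries of its line. The way boundaries were joined, and whether reads were shifted for the transposase, are not given in the sources used here. The deposited lists give, beside each position, a whole number with no header, which ran from 3 to the number of libraries and was read as support, a count of libraries and not of reads. No normalization was applied to it. Read depth is therefore unknown from these files, and no per-library value was used. The study's supplement does list read pairs per library, and 1 MM.1S MONO library had far fewer than the other MM.1S libraries. All RPMI8226 libraries had fewer read pairs than each of those other MM.1S libraries, so depth and cell line cannot be told apart. How depth bears on support, peak width or the differences between the lines was not tested. The lists have no header and were read as BED, so 1 was added to each start for printing.

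Genes and starts came from GENCODE 44 on hg38, whereas the study used RefSeq. Windows were the gene body plus 100 kb on each side, promoters the 2500 bp on each side of any annotated start, and sharing an overlap of at least 1 bp. The main start is the canonical transcript's start, and positions count +1 at that base. Motifs were sought as exact letters on both strands, in whole peaks for own promoter peaks and in the central 200 bp for shares. For a peak less wide than 200 bp, the search for shares took in bases beside the peak, in the members and in the lists. RefSeq promoters were matched by symbol for 9 of 10 members. Analysis used Python 3.11.15, pandas 2.3.3, numpy 2.4.6, scipy 1.17.1, pysam 0.24.0, samtools 1.23.1 and matplotlib 3.10.9, and the overlap and motif functions were tested on simulated data.

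All members were named, with their own promoter peaks, the widest distal peak per line and the widest line-only distal peak called in every library. The members, gene lists and motifs were chosen with earlier results of these data known. Tests between cultures need reads per library and were not run. Flanks, promoter widths, overlap rules, peak width, support and the joining of near peaks were varied.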

Additional observations from a re-analysis of the deposited data

How the results depend on the processing

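No paired analysis was possible because the lists pool all libraries of a line and no result comes from a test. With flanks of 50 kb the windows held 77 peaks in MM.1S and 81 in RPMI8226, and with 200 kb 217 and 218. Peaks whose nearest coding start is a member's numbered 30 and 36, of which 66.7% and 75.0% were shared (lists 64.6% and 62.0%). Of these peaks 50.0% and 58.3% were called in every library, below the lists (52.0% and 64.1%). Peaks at least as wide as the list's median numbered 90 and 92, with 82.2% and 93.5% shared (lists 75.7% and 75.0%) and 77.8% and 87.0% called in every library (lists 78.6% and 86.1%), so that support was close to the lists on both sides. Among peaks called in every library 82 remained in MM.1S, of which 72.0% were at promoters (list 50.8%). Of such peaks 91.5% and 93.1% were shared in MM.1S and RPMI8226 (lists 81.3% and 74.1%). The promoter share was 50.7% in RPMI8226 with 1000 bp promoters (list 27.4%), and 75.0% and 74.3% with 5000 bp (lists 49.3% and 46.4%). With starts of protein-coding transcripts alone it was 44.1% and 48.6% (lists 25.3% and 23.2%). With a reciprocal overlap of 50% sharing was 61.0% and 59.3% (lists 51.8% and 47.2%). With peaks called in every library alone, 4 myeloid markers had a promoter peak in MM.1S and 2 stromal markers in RPMI8226. Joining peaks closer than 500 bp, an alternative chosen after seeing the data, moved no share past its interval. Leaving out each member in turn kept the promoter share between 52.1% and 66.4% in MM.1S and between 53.7% and 64.4% in RPMI8226, and the shared share between 71.8% and 77.7% and between 81.4% and 86.0%. In all, the members' promoter share and shared share stayed above those of the list under each of these settings. With nearest starts, however, the shared share in MM.1S was close to its list (66.7% and 64.6%). The share called in every library did not stay above the list (nearest starts in both lines, wide peaks in MM.1S). Depth per library limits the lists in a way these files do not show.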

Other observations

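Neighbours in the members' windows also held ATF::CEBP matches in shared promoter peaks, and were noticed after the values were seen. Near DDIT3, INHBE, an activin subunit gene, had 2 matches in peaks with support of 6 of 9 in MM.1S and 4 of 5 in RPMI8226. MARS1, the methionyl-tRNA synthetase gene, had 1 match in a peak with support of 9 and 5. Near ATF3, a noncoding gene 49.7 kb upstream of its main start had 1 match in a peak with support of 9 and 5. CSF3R, one of the myeloid markers, and MZB1, one of the plasma cell markers, each had 1 match in promoter peaks of both lines.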
